A study of Homo sapiens with 5 samples.

Results

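Peaks of 2 antibodies against the protein PRDM11 were compared at the positions that each antibody's own library gave with both of its controls. The series held 5 chromatin immunoprecipitation sequencing (ChIP-seq) libraries of untreated U2932, a human cell line established from a lymphoma. There was 1 library each for PRDM11 antibody 1 and PRDM11 antibody 2, both non-commercial rabbit polyclonal antibodies, 1 for RNA polymerase II, 1 for rabbit IgG and 1 for input chromatin that was not precipitated. Peaks of each antibody had been called once against IgG and once against input. A peak called against IgG was taken as control-robust when any base of it (1 bp or more) lay in a peak that the same library gave against input. By this rule 10972 of the 13499 antibody 1 peaks and 433934 of the 465837 antibody 2 peaks were control-robust. Together these are 444906 peaks, and the series held 529497 IgG-called peaks in all, those of RNA polymerase II included. Control-robust is meant wherever a peak is named below without another term. Each antibody had 1 library and no replicate, so no value carries an error between samples and no p-value is given. Ranges in parentheses are exact binomial intervals at 95%; they take each peak as independent and reflect counting error alone. The peak lists give positions on the human build hg19 without scores or read counts, so depth is unknown. A labelled target could not be checked against a known site either, since no gene annotation of that build was used here.

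PRDM proteins share a PR domain, which is related to the SET domain of histone methyltransferases, and several members of the family are known as regulators of transcription in development and in B cells. ChIP-seq enriches DNA fragments cross-linked to a protein, and a peak is a stretch with more fragments than its control. Known sources of false peaks are fragments that any antibody carries along, which the IgG control measures, and uneven shearing or copy number, which the input control measures. A polyclonal antibody is a mixture that binds several parts of its target and can bind other proteins, so a second antibody raised against the same protein is a common check of where the target sits. Both antibodies here were set against the same IgG and input libraries, and the part that these shared controls have in the overlap was not tested.

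The demand for both controls removed mainly narrow peaks. Antibody 1 kept 81.3% (80.6% to 81.9%) of its peaks, antibody 2 kept 93.2% (93.1% to 93.2%). For antibody 1 the kept share was 50.7% among 2753 peaks of 123 bp, the shortest width in either list, 78.1% at over 123 and under 200 bp, 95.1% at 200 to under 300 bp and 99.1% at 300 to under 500 bp. All 1441 antibody 1 peaks of 500 bp or more were kept. For antibody 2 the kept share was 91.6% at 123 bp and 99.1% at over 123 and under 200 bp. The kept antibody 1 peaks had a median width of 213 bp (quartiles 147 and 348 bp) and covered 3.20 Mb. The kept antibody 2 peaks covered 60.8 Mb, and 77.1% of them were exactly 123 bp wide. The positions of antibody 2 hardly depended on the control: 94.5% of its peaks had the identical start and end in both lists, against 6.73% of antibody 1 peaks, whose matching input-called intervals had a median width of 274 bp.

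Antibody 1 peaks coincided with antibody 2 peaks in 5757 of 10972 cases, or 52.5% (51.5% to 53.4%); these 5757 are called shared. Over all IgG-called peaks of both libraries the same share was 47.2%. When the antibody 1 peaks were moved by 50 kb, which keeps only the broad density of peaks, 8.24% overlapped (8.23% in one direction and 8.25% in the other). The observed share was 6.37 times as high. Counted from the far longer antibody 2 list, 6704 of 433934 peaks, or 1.54% (1.51% to 1.58%), overlapped antibody 1, against 0.212% after the move and 1.59% over all IgG-called peaks. In base pairs, 1347 kb lay in peaks of both antibodies, 42.1% of the antibody 1 territory and 2.22% of that of antibody 2, which was 15.2 times the 88.9 kb found after the move.

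Antibody 1 peaks that lacked support from the input control overlapped control-robust antibody 2 peaks much less often than control-robust antibody 1 peaks did. Of these 2527 peaks, 13.3% (12.0% to 14.7%) overlapped a control-robust antibody 2 peak, against 5.20% after the move. The gap was also present within width classes. At 123 bp, 19.5% (17.4% to 21.7%) of 1396 control-robust and 10.3% (8.75% to 12.1%) of 1357 other peaks overlapped antibody 2. Between 123 and 200 bp they were 35.6% and 15.8%, and at 200 to under 300 bp they were 53.6% and 22.5% (15.6% to 30.7%, 129 peaks). Antibody 2 showed no such order at its shortest width: 0.600% (0.574% to 0.627%) of control-robust and 0.835% (0.736% to 0.943%) of the other 123 bp peaks overlapped antibody 1, and after the move 0.196% and 0.255% did. Antibody 2 peaks without input support gave another order. Of control-robust antibody 1 peaks 2.56% met one, against 0.729% after the move, a ratio of 3.51. Of the other antibody 1 peaks 4.19% did, against 0.475%, a ratio of 8.83. That moved share, 0.475% of 2527 peaks, rests on few overlaps, so the ratio is imprecise.

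The share of overlapping peaks rose with peak width in both lists. The antibody 1 share went from 19.5% at 123 bp over 73.4% (71.4% to 75.3%) of 1974 peaks at 300 to under 500 bp to 95.8% (94.5% to 96.8%) of 1249 peaks at 500 to under 1000 bp. Wider peaks also meet more peaks after a move, and the moved share rose from 4.69% to 14.5% over the same classes. The ratio of observed to moved share was therefore 4.15 at 123 bp, 7.53 at 300 to under 500 bp and 6.61 at 500 to under 1000 bp. All 192 antibody 1 peaks of 1000 bp or more overlapped, with a moved share of 19.3% and a ratio of 5.19. Relative to the moved level, antibody 1 thus did not keep rising with width. The antibody 2 share rose from 0.600% at 123 bp over 2.25% (2.13% to 2.37%) between 123 and 200 bp to 4.30% (4.09% to 4.52%) of the 35083 peaks of 200 to under 300 bp, and its ratio to the moved share from 3.06 over 9.60 to 15.1. It was 30.4% (29.0% to 31.9%) for 4000 peaks of 300 to under 500 bp and 90% (87.4% to 92.2%) for 640 peaks of 500 to under 1000 bp, while the moved share was 0.488% and 0.547%. Peaks of 300 to under 500 bp made up 0.922% of the antibody 2 list.

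**Figure D1:**
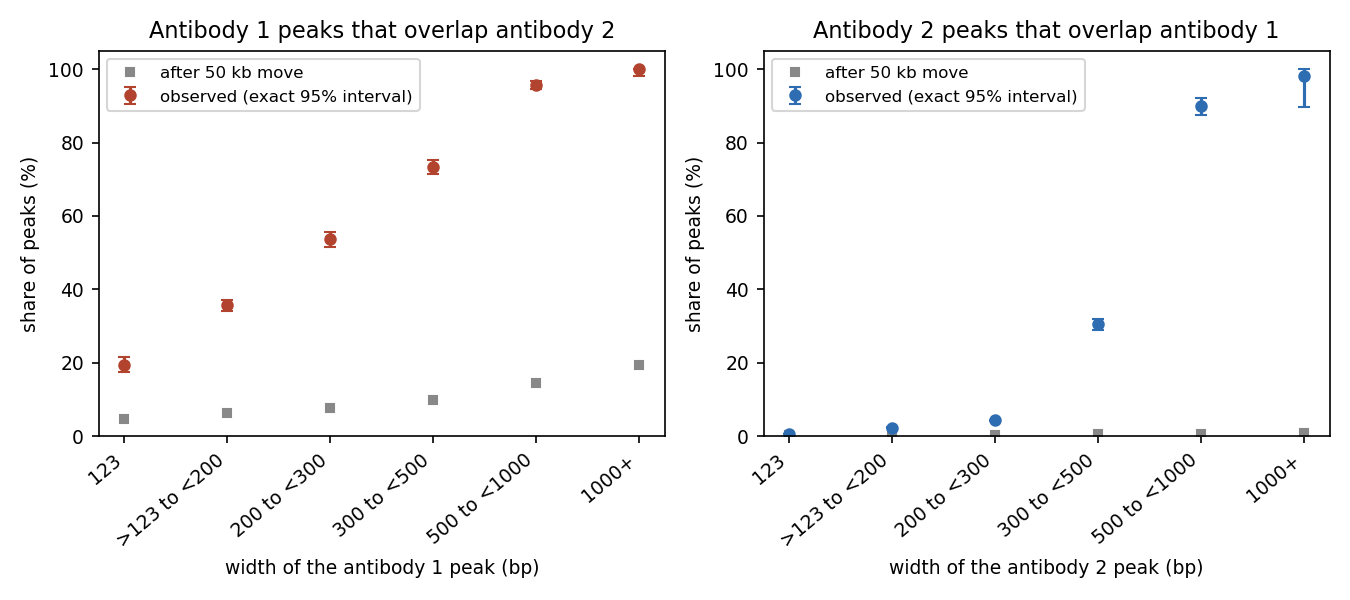
Share of control-robust peaks that overlap a control-robust peak of the other antibody (y axis, %) by peak width (x axis, bp), for antibody 1 on the left and antibody 2 on the right. Circles are observed shares with exact 95% intervals and grey squares the shares after a 50 kb move; the antibody 1 share climbs steadily from 19.5% at 123 bp, while that of antibody 2 stays at 4.30% or less below 300 bp and reaches 90% at 500 to under 1000 bp.

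Which antibody 2 peaks the antibody 1 peaks met also depended on width. Antibody 2 peaks of 123 bp, the bulk of that list, were met by 10.2% of the 123 bp antibody 1 peaks and by 24.5% of those of 500 to under 1000 bp, 3.30 and 2.25 times the moved shares. Antibody 2 peaks of 300 bp or more were met by 2.29% and 60.4% of the same classes, 12.8 and 151 times the moved shares. These moved shares were 0.179% of 1396 and 0.400% of 1249 peaks, so both ratios rest on few moved overlaps and are imprecise. Partner widths followed each other: the antibody 2 partner had a median of 123 bp for antibody 1 peaks of 123 bp, 183 bp for those of 200 to under 300 bp, 342 bp for those of 500 to under 1000 bp and 669.5 bp for those of 1000 bp or more. Across the 5757 pairs of a shared antibody 1 peak with its nearest overlapping antibody 2 peak, the rank correlation of the widths was rho = 0.40, against -0.07 and -0.02 for pairs formed by the moves in the 2 directions. This is a description over pairs, which are not independent replicates. The antibody 2 partner was the narrower peak in 69.8% of pairs. Shared antibody 1 peaks had a median width of 296 bp and unshared ones of 163 bp.

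Most shared sites were simple pairs. Of the shared antibody 1 peaks, 4720 (82.0%) held 1 antibody 2 peak, 895 (15.5%) held a pair of them and 142 (2.47%) held 3 or more, with at most 5. Conversely, 247 antibody 2 peaks spanned several antibody 1 peaks. In 4353 cases each peak overlapped the other and no further peak. The nearest antibody 2 peak lay wholly inside the antibody 1 peak in 34.9% of pairs, the antibody 1 peak lay inside it in 9.48%, and 55.6% overlapped at one end. No pair had the same start and end, 0 of 5757, which allows a share of up to 0.0521%.

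Midpoints of the peaks of both antibodies fell close together. Around antibody 1 midpoints, antibody 2 midpoints numbered 173 per 1000 antibody 1 peaks in the 100 bp bin just to the right and 166 in the bin just to the left, against 20.9 and 19.7 after the move. The excess reached well beyond the central bins. At 400 to 500 bp on either side the density was still 77.0 and 73.2 against 18.7 and 18.0. At 1900 to 2000 bp it was 28.8 and 28.7 against 20.1 and 19.5. These counts include antibody 2 peaks on a neighbouring antibody 1 peak or inside a wide one, and their part was not tested. With both lists limited to 200 bp or more, the central bins held 127 and 125 per 1000, against 2.28 and 2.44 after the move.

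**Figure D2:**
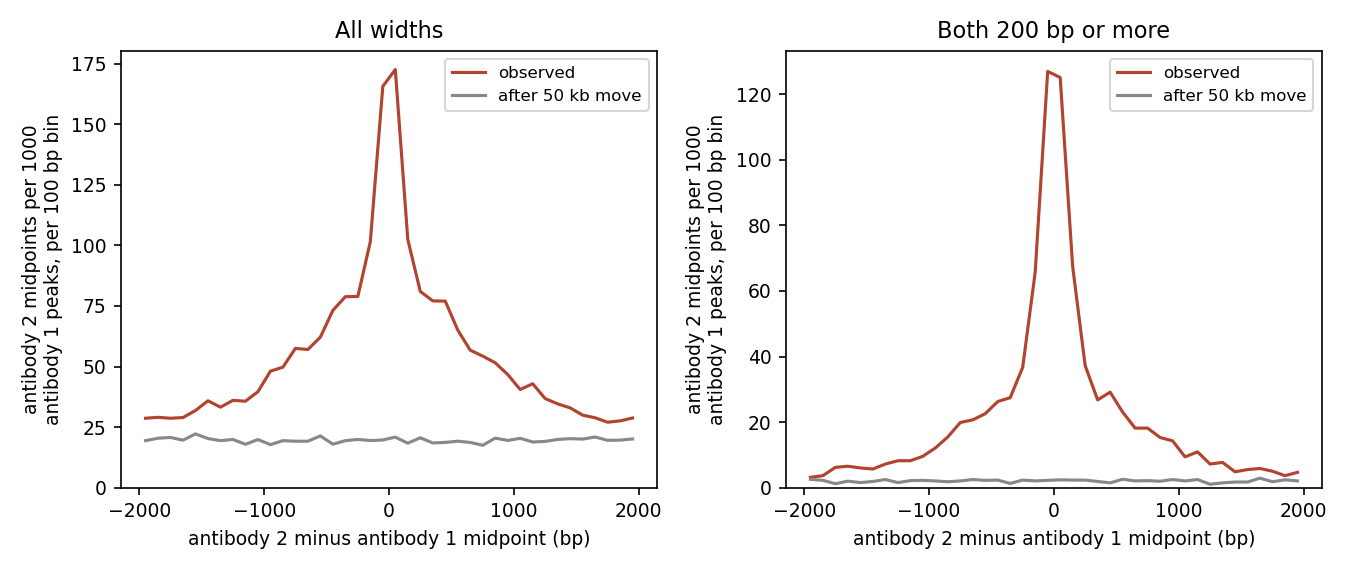
Number of antibody 2 midpoints per 1000 antibody 1 peaks in 100 bp bins (y axis) by signed distance from the antibody 1 midpoint (x axis, bp), with all widths on the left and both lists limited to 200 bp or more on the right. The observed line peaks at the centre, at 173 on the left panel, and stays above the line after a 50 kb move up to 2000 bp on both sides.

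In overlapping pairs the median distance between midpoints was 74 bp (order-statistic 95% interval 71.5 to 76 bp, quartiles 35.5 and 125.5 bp), and 35.3% of pairs lay within 50 bp. Pairs that overlapped after a move, 1808 over both directions, had a median of 101 bp (95.5 to 106.5 bp), and 26.1% lay within 50 bp. Overlap itself limits the offset, since midpoints can be no further apart than the mean of both widths. As a fraction of that limit the median offset was 0.26 in observed pairs and 0.47 in moved pairs. The difference grew with width. For antibody 1 peaks of 500 to under 1000 bp the medians were 94.5 bp (89.5 to 100.5 bp) observed and 186 bp (167 to 203.5 bp) moved, and for those of 1000 bp or more 123.5 bp (103 to 143.5 bp) and 296 bp (227.5 to 352 bp). For pairs with both peaks of 500 bp or more (489 pairs) the median was 100.5 bp, a fraction of 0.13 of the possible offset.

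Narrow pairs were no better centred than moved ones. In 142 pairs of a 123 bp peak with another 123 bp peak the median offset was 61.5 bp (49 to 68 bp), against 56.5 bp (45 to 63 bp) in 86 moved pairs, although such overlaps were 3.30 times as frequent as after the move. For all antibody 1 peaks of 123 bp the medians were 65 bp (56 to 68.5 bp) and 57 bp (48 to 65 bp). The overlapping intervals do not show that the offsets are equal. The offset had no side: antibody 2 midpoints lay to the right in 50.8% (49.5% to 52.1%) of the pairs that differed. For comparison, the same antibody 1 peak called against IgG and against input had a median offset of 16 bp (15.5 to 16.5 bp), or 23.5 bp (21.5 to 26 bp) with both intervals of 500 bp or more. Agreement between antibodies was thus looser than agreement of 1 antibody with itself under another control, for which the same reads were used.

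**Figure D3:**
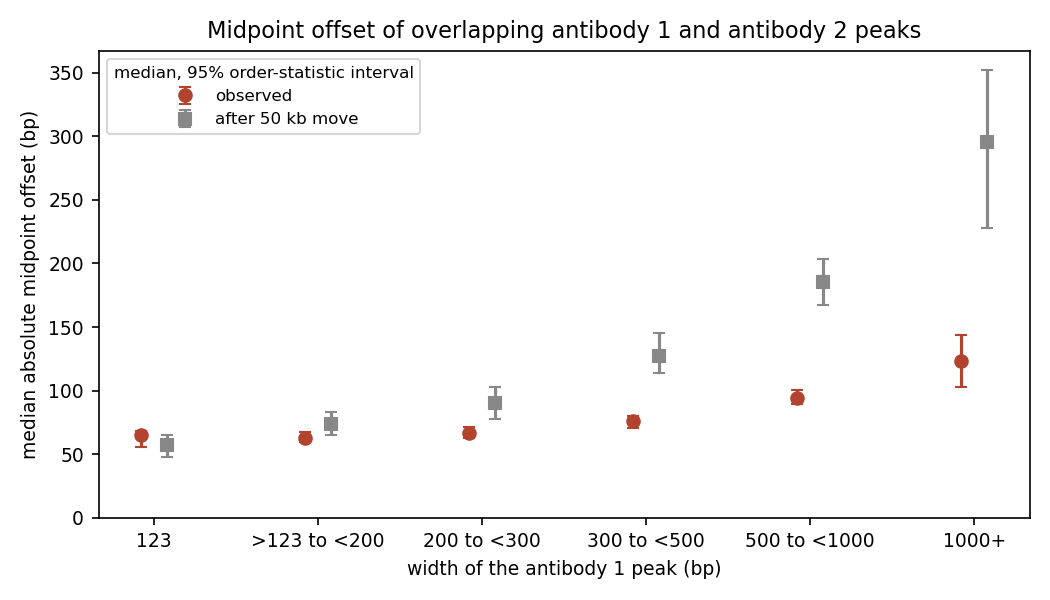
Median absolute distance between the midpoints of an antibody 1 peak and its nearest overlapping antibody 2 peak (y axis, bp) by width of the antibody 1 peak (x axis, bp), observed (circles) and after a 50 kb move (grey squares), with 95% order-statistic intervals. The intervals of both overlap at 123 bp, where the medians are 65 and 57 bp, and the medians separate with width, to 123.5 and 296 bp at 1000 bp or more.

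Unshared antibody 1 peaks were also placed near antibody 2. The nearest antibody 2 peak lay a median of 620 bp away for the 5215 unshared peaks, against 1876 bp for moved ones that did not overlap. Within 100 bp, 14.1% (13.1% to 15.0%) of unshared peaks had an antibody 2 peak, against 3.72% after the move, and within 1000 bp 60.1% (58.8% to 61.4%) against 31.3%. Counting only further antibody 2 peaks in the flanks, shared antibody 1 peaks had a mean of 1.23 within 1 kb on either side and unshared ones 0.978, against 0.389 and 0.384 after the move. Among antibody 1 neighbours under 1 kb apart, 1005 pairs held 1 shared and 1 unshared peak. There the antibody 2 partner of the shared peak lies near the unshared peak by construction. The part of such pairs in these distances and counts was not tested.

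By chromosome, agreement measured from antibody 1 varied less, relative to its level, than agreement measured from antibody 2. The antibody 1 share lay between 43.9% and 57.7% over chromosomes 1 to 22 and X. Among antibody 1 peaks of 200 bp or more it ranged from 56.1% on chromosome 21 to 78.2% on chromosome 15. Chromosomes 5 (57.7%, 53.3% to 62.0%), 14 (56.1%, 50.5% to 61.5%) and 15 (55.6%, 50.7% to 60.4%) had the highest shares, and chromosomes 22 (43.9%, 37.7% to 50.2%), X (45.3%, 38.6% to 52.1%) and 21 (46.1%, 36.8% to 55.6%) the lowest. The interval held the overall 52.5% for 19 of 23 chromosomes; it lay below for chromosomes 19, 22 and X and above for chromosome 5. The intervals of the 3 highest overlapped each other, as did those of the 3 lowest. The antibody 2 share ranged from 0.989% (0.820% to 1.18%) on chromosome X to 3.15% (2.85% to 3.47%) on chromosome 19, followed by 2.56% (2.31% to 2.83%) on chromosome 17 and 1.94% (1.63% to 2.30%) on chromosome 22. Chromosomes 13 and 21 were next to X at the low end, each at 1.16%. Here the interval held the overall 1.54% for 9 chromosomes, lay below for 8 and above for 6. Chromosome 19 held 6.53% of antibody 1 peaks and 2.80% of antibody 2 peaks, and chromosome X 2.03% and 2.80%. The part of such differences in list content in the antibody 2 shares was not tested.

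The moved share changed the order. Chromosome 19 is known for its high gene density, and its moved shares of 11.7% for antibody 1 and 0.691% for antibody 2 were above those of the other chromosomes tested. It had the lowest ratios of observed to moved share, 4.02 for antibody 1 and 4.56 for antibody 2. On chromosome X the moved shares were 3.81% and 0.0700%, the lowest, and the ratios of 11.9 and 14.1 were the highest. These moved shares are of 223 antibody 1 and 12136 antibody 2 peaks, so both ratios rest on few moved overlaps and are imprecise. The median ratio over the 23 chromosomes was 7.07 for antibody 1 and 8 for antibody 2, and the ratio was above 4 on each for both. As a description across 23 chromosomes of 1 library each, the antibody 1 and antibody 2 shares had a Pearson's r of -0.08 and a Spearman's rho of 0.19, and r was -0.14 without chromosomes 22 and X, those farthest from the median antibody 1 share.

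**Figure D4:**
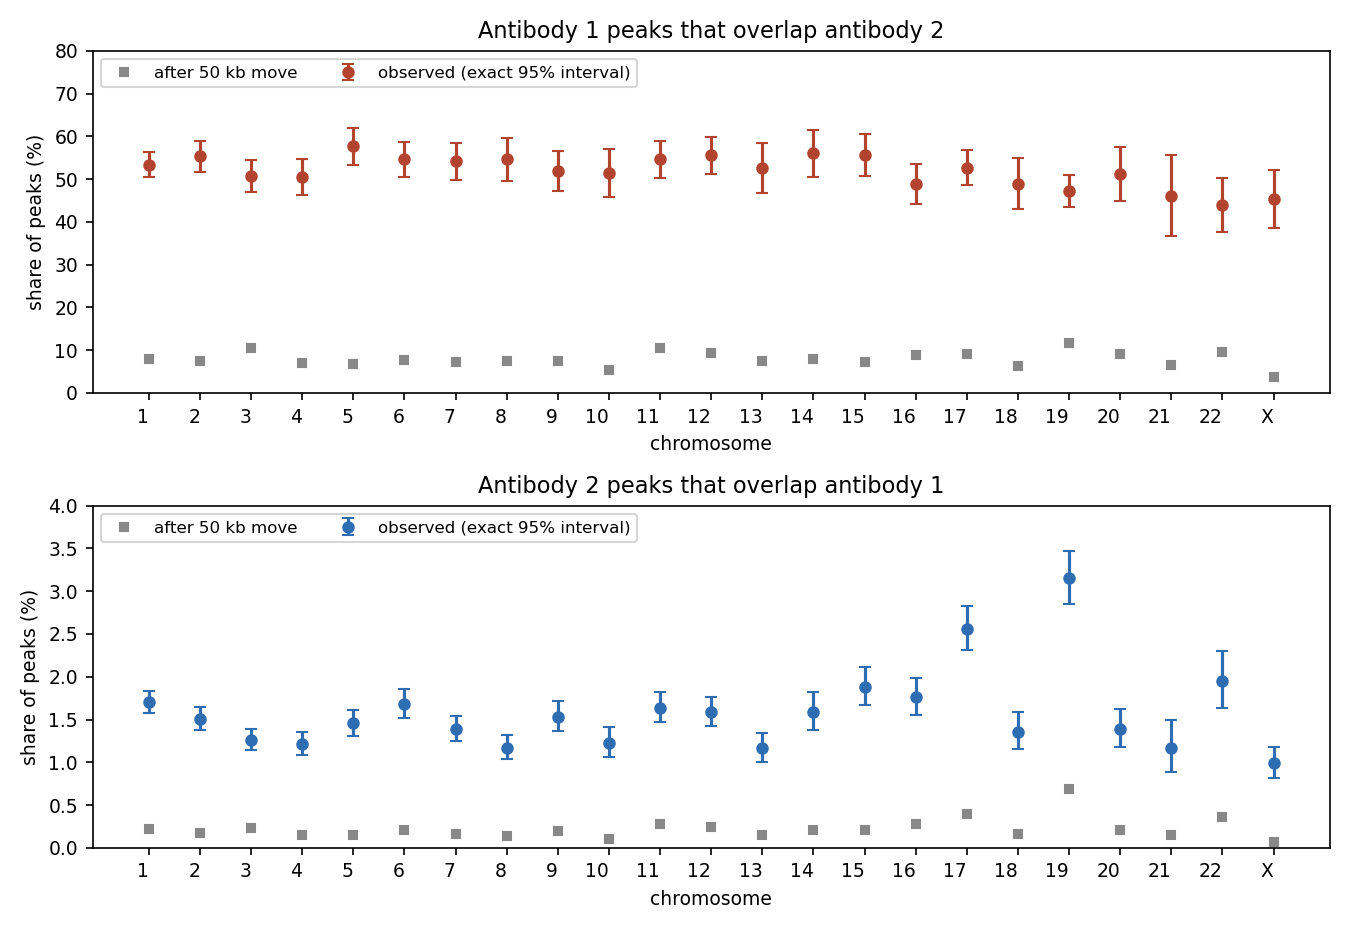
Share of control-robust peaks that overlap the other antibody (y axis, %) for chromosomes 1 to 22 and X (x axis), antibody 1 above and antibody 2 below, with exact 95% intervals; grey squares are shares after a 50 kb move. The antibody 1 shares stay between 43.9% and 57.7%, while the antibody 2 shares reach 3.15% on chromosome 19, where the moved share is also highest at 0.691%.

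Antibody 1 peaks were sparse and in part clustered, antibody 2 peaks dense. The gap from a peak to the next had a median of 65.4 kb for antibody 1 (quartiles 3.83 and 233 kb) and 3.84 kb for antibody 2 (1.44 and 8.32 kb). Gaps under 1 kb made up 21.8% of antibody 1 gaps and 18.9% of antibody 2 gaps, so close neighbours were about as common in both lists although the typical gap differed widely. No gap in either list was under 44 bp. Taken alone, the shared antibody 2 peaks had a median gap of 78.8 kb, and 30.7% of their gaps were under 1 kb.

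Peaks with a close neighbour in their own list were shared more often. Antibody 1 peaks whose nearest antibody 1 neighbour lay under 1 kb away were shared in 64.8% (63.3% to 66.3%) of 4181 cases. The share was 48.8% (45.7% to 51.8%) at 1 to 10 kb, 44.1% (41.9% to 46.2%) at 10 to 50 kb, 47.1% (45.1% to 49.1%) at 50 to 200 kb and 38.4% (35.7% to 41.3%) beyond. Median width also fell, from 234 bp in the first class to 173 bp in the last. Restricted to antibody 1 peaks at or above 200 bp, these became 76.6%, 69.4%, 60.9%, 68.7% and 66.7%, so the first class remained the highest and the order of the others changed. Set against the moved shares, the ratios over the 5 classes were 7.51, 5.42, 4.63, 6.53 and 6.39 with all widths. At or above 200 bp they were 7.36, 6.36, 5, 8.02 and 8.20, and there the classes beyond 50 kb had the highest ratios. For antibody 2 the contrast was steeper, 3.71% (3.62% to 3.81%) under 1 kb, 0.458% (0.433% to 0.484%) at 1 to 10 kb and 0.243% (0.182% to 0.318%) at 10 to 50 kb, where the moved shares were 0.236%, 0.210% and 0.0757%. Antibody 2 peaks in the same antibody 1 peak are close neighbours that are both shared by construction, and their part here was not tested.

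**Figure D5:**
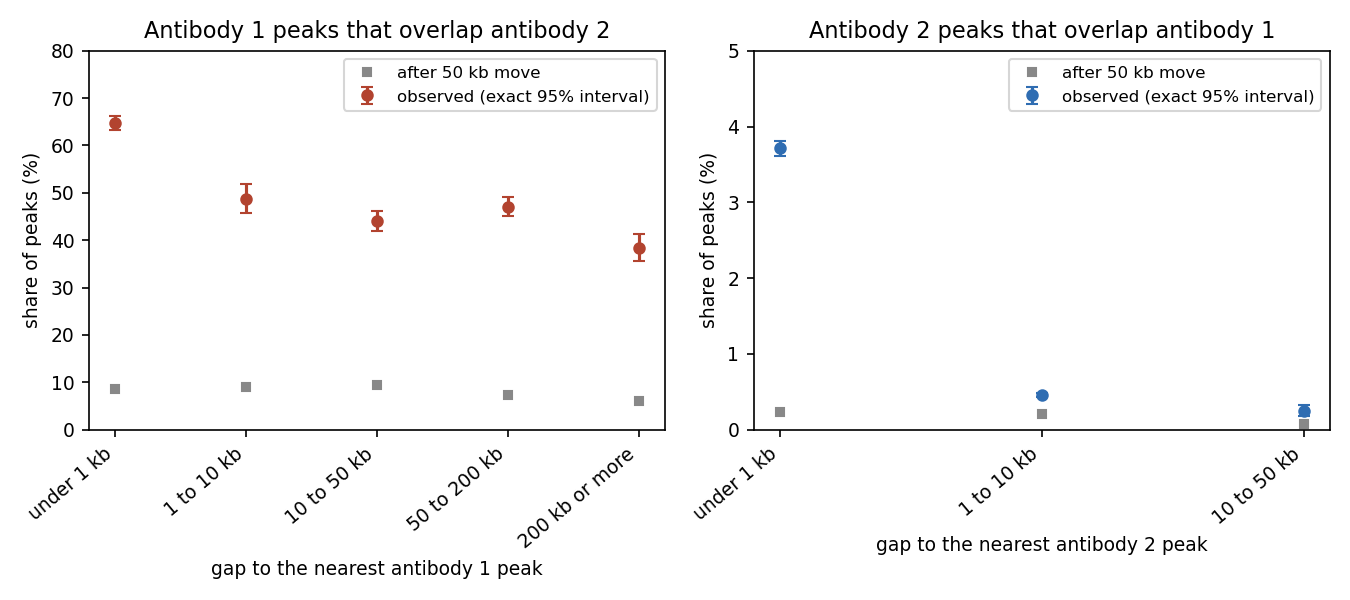
Share of control-robust peaks that overlap the other antibody (y axis, %) by the gap to the nearest peak of the same list (x axis), antibody 1 on the left and antibody 2 on the right, with exact 95% intervals; grey squares are shares after a 50 kb move. Both panels are highest for gaps under 1 kb, at 64.8% and 3.71%, and the antibody 2 share is below 0.5% in the wider classes shown.

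Antibody 1 peaks next to a shared peak were shared slightly more often than those next to an unshared one. Among 2387 neighbouring pairs under 1 kb apart, a peak next to a shared peak was itself shared in 68.0% and a peak next to an unshared one in 61.4%. After the move these values were 16.0% and 7.93%, so a contrast was present there as well. Of the 1066 pairs with both peaks shared, 144 overlapped the same antibody 2 peak and were thus shared together by construction. The part of these pairs in the antibody 1 contrast was not tested. At 1 to 10 kb the observed values were 53.7% and 51.4% (moved 10.6% and 8.90%), at 10 to 50 kb 50.2% and 46.7% (moved 9.69% and 9.77%), and at 50 to 200 kb 50.7% and 48.7% (moved 6.54% and 8.37%). Antibody 2 behaved otherwise at short range: under 1 kb, 52.9% of peaks next to a shared peak were shared and 2.24% of those next to an unshared peak. After the move these values were 25.7% and 0.180%, so a contrast was present there too. Antibody 2 peaks in the same antibody 1 peak are both shared by construction. As given above, 895 antibody 1 peaks held 2 antibody 2 peaks and 142 held 3 or more. The part of such peaks in the contrast was not tested.

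Where both of 2 neighbouring antibody 1 peaks were shared, their spacing was matched by antibody 2. Among 1066 such neighbours under 1 kb apart, 144 lay in the same antibody 2 peak and 922 had different partners. In the latter the midpoint spacing had a median of 558 bp in antibody 1 and 568.5 bp in antibody 2, with a median absolute difference of 86.3 bp, and the partners were next to each other in the antibody 2 list in 77.3% of cases. At 1 to 10 kb the spacing differed by a median of 106 bp over 206 neighbours, but antibody 2 partners were adjacent in 18.4%, since other antibody 2 peaks lay between them. Both partners overlap their antibody 1 peaks by choice, which bounds how far the spacings can differ, so this is not separate evidence of agreement.

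The 10 pairs with the most base pairs in common shared 1213 to 1972 bp each. The first, on chromosome 18, had an antibody 1 peak at 61033139 to 61035274 and an antibody 2 peak at 61033303 to 61035278, with midpoints 84 bp apart. On chromosome 11, the antibody 2 peak at 10879117 to 10880781 lay wholly inside the antibody 1 peak at 10878831 to 10880843. Chromosome 15 held a pair at 76628843 to 76630787 (antibody 1) and 76628890 to 76630380 (antibody 2), midpoints 180 bp apart, and another at 75639100 to 75640586 and 75639038 to 75640602, midpoints 23 bp apart. The closest midpoints, 5.5 bp, belonged to chromosome 3 at 23957343 to 23958655 (antibody 1, 1313 bp) and 23957300 to 23958709 (antibody 2, 1410 bp). A second chromosome 3 pair lay at 148708785 to 148710215 and 148708883 to 148710173.

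Further pairs in this group lay on chromosome 12 (antibody 1 at 90101050 to 90102688 and at 6937542 to 6938774), chromosome 13 (31734963 to 31736275) and chromosome 20 (3826794 to 3828289). Their antibody 2 peaks spanned 1261, 1415, 1372 and 1226 bp. Over the 10 pairs the median offset was 83.3 bp, the antibody 2 peak was the narrower one in 6, and all 10 antibody 1 peaks held a control-robust RNA polymerase II peak, near the 92.2% (177 of 192) of all shared antibody 1 peaks of 1000 bp or more. The chromosome 18 pair and the second chromosome 3 pair lay in 1-Mb bins crowded with input-called peaks (50 or more antibody 1 peaks in the input list and no fewer than 5 times 1 more than the IgG-list number). Such bins held 4.99% of antibody 1 peaks, of which 45.8% (41.6% to 50.1%) were shared, against 52.8% (51.9% to 53.8%) elsewhere. The moved shares were 6.84% and 8.31%, so the ratio was 6.69 in these bins and 6.35 elsewhere, the opposite order.

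Wide peaks seen with 1 antibody were few. Of the 1441 antibody 1 peaks of 500 bp or more, 53 overlapped no control-robust antibody 2 peak, and 32 of these overlapped no antibody 2 peak of either list. Over all widths, 5215 of 10972 were unshared, and 4613 of these overlapped no antibody 2 peak of either list. The antibody 2 input list was met by 30.2% of the 53 peaks, against 14.2% after the move. The widest unshared antibody 1 peak, 780 bp from 78133234 to 78134013 of chromosome 16, was 5287 bp from the nearest control-robust antibody 2 peak, with an antibody 2 peak called against input alone. The second widest, 680 bp from 1058801 to 1059480 of chromosome 12, overlapped no antibody 2 peak of either list, and its nearest control-robust one was 4239 bp away. The peak on chromosome 14 at 73706267 to 73706933 overlapped an antibody 2 peak called against IgG alone. Those on chromosome 6 (79577112 to 79577776) and chromosome 11 (118901087 to 118901751), both 665 bp, had their nearest antibody 2 peak 200 and 446 bp away. RNA polymerase II peaks were present in 4 of these 5, near the 88.7% (47 of 53) of all unshared antibody 1 peaks of 500 to under 1000 bp.

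For antibody 2, 65 of the 691 peaks of 500 bp or more overlapped no control-robust antibody 1 peak, and 56 overlapped no antibody 1 peak of either list. Over all widths, 427230 of 433934 were unshared, and 422696 of these overlapped no antibody 1 peak of either list. The antibody 1 input list was met by 12.3% of the 65 peaks, against 0.769% after the move. The widest was on chromosome 1 at 121484331 to 121485503 (1173 bp), with the nearest antibody 1 peak 223225 bp away. Next came 3456495 to 3457218 of chromosome 19, whose nearest antibody 1 peak was 24378 bp away, and 107147625 to 107148338 of chromosome 14, at 6613 bp. The peak at 51984932 to 51985623 of chromosome 12 had its nearest at 321311 bp but overlapped an antibody 1 peak called against input. The last, 40020780 to 40021461 of chromosome 17, had its nearest at 64995 bp. Of these 5, the chromosome 17 peak held an RNA polymerase II peak, near the 23.4% (15 of 64) of all unshared antibody 2 peaks of 500 to under 1000 bp.

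RNA polymerase II, which makes the messenger RNA of the cell, gave a readout that the choice of peaks did not use. Its peaks were set against the same IgG and input libraries as those of both PRDM11 antibodies. Control-robust RNA polymerase II peaks were overlapped by 61.5% (60.6% to 62.4%) of antibody 1 peaks and 3.01% (2.96% to 3.06%) of antibody 2 peaks, where 55.2% and 3.20% of all IgG-called peaks overlapped the IgG-called RNA polymerase II list. After a move of 50 kb the control-robust shares were 3.19% and 1.12%, so the ratios were 19.3 for antibody 1 and 2.69 for antibody 2. The antibody 1 ratio was thus higher with RNA polymerase II than with antibody 2, where it was 6.37. These lists differ in length, 44842 RNA polymerase II and 433934 antibody 2 peaks, and the part of this in the ratios was not tested. Antibody 2 peaks separated by sharing: 67.4% (66.3% to 68.5%) of the 6704 shared with antibody 1 overlapped RNA polymerase II, and 2.00% (1.96% to 2.04%) of the 427230 unshared, with moved shares of 3.12% and 1.09%. A shared antibody 2 peak lies on an antibody 1 peak by definition, and even unshared antibody 1 peaks overlapped RNA polymerase II in 51.8%. The split by sharing is therefore not separate evidence of agreement. It was also present within width classes. At 123 bp 59.4% (57.2% to 61.6%) of shared and 1.62% (1.58% to 1.66%) of unshared peaks overlapped, and at 500 to under 1000 bp 81.3% (77.8% to 84.4%) and 23.4% (13.8% to 35.7%, 64 peaks).

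For antibody 1 the corresponding shares were 70.3% (69.1% to 71.5%) of shared and 51.8% (50.4% to 53.1%) of unshared peaks, and here width mattered. At 123 bp they were 41.9% (36.0% to 48.0%) and 21.5% (19.2% to 24.1%), and at over 123 and under 200 bp 57.4% (54.7% to 60.2%) and 49.4% (47.3% to 51.4%). At 200 to under 300 bp they were 67.7% (65.2% to 70.2%) and 70.8% (68.1% to 73.4%), and at 300 to under 500 bp 75.6% (73.3% to 77.8%) and 80.95% (77.3% to 84.2%). At 500 to under 1000 bp they were 83.8% (81.6% to 85.8%) and 88.7% (77.0% to 95.7%, 53 unshared peaks). In each class from 200 to under 1000 bp the unshared share was the higher value, with overlapping intervals. The shared share was the higher value in the classes under 200 bp alone.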

How the data were processed

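Per the submitters' processing notes, Bowtie 0.12.7, SAMtools, MACS2 2.0.9 and build hg19 were used by the authors; their order and settings are not given in the sources used here. The 6 deposited lists (3 ChIP libraries, each against IgG and against input) hold chromosome, start and end in 3 columns and carry no scores; their names give a q threshold of 0.1. A weak threshold and a minimum width admit narrow peaks, and the lists carry no depth from which their precision could be judged. Starts are printed counted from 1.

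Groups follow the antibody named in the labels. Overlap was at least 1 bp, and moved shares are means over moves of 50 kb in both directions. Named regions are the 10 pairs sharing the most base pairs and the 5 widest unshared peaks of each antibody, and named chromosomes the 3 highest and 3 lowest shares. Genes and base composition were planned but not run, because no genome of build hg19 was used here. The members, classes and lists were chosen with earlier results of these data known.

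Python 3.11.15 with NumPy 2.4.6, pandas 2.3.3, SciPy 1.17.1 and matplotlib 3.10.9 was used. As a check of the code, 1000 of 1000 artificial intervals placed on real antibody 2 peaks were found to overlap. Of 1000 placed in large gaps of that list, 0 overlapped. Both outcomes were set by the placement, so they do not measure accuracy on real peaks. The count of 5757 was identical with bedtools 2.31.1. Alternatives were stricter overlap, other intervals, widths of 200 bp or more, chromosomes, crowded bins and other moves.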

Additional observations from a re-analysis of the deposited data

How the results depend on the processing

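The ratio of the observed antibody 1 share to the moved share was above 1 in all 12 alternatives, between 5.68 and 48.6. Shares are compared with their exact interval and counts with a factor of 1.5. Requiring 50% of the peak to be covered gave an antibody 1 share of 34.4%, a count of 3771, a ratio of 16.3 and an antibody 2 share of 1.24%; the reciprocal demand gave 26.2%, 2870, 14.1 and 0.661%. Both lower the shares by construction. Input-list intervals gave 54.0%, a ratio of 5.73 and an antibody 2 share of 1.61%; all IgG-called peaks gave 47.2%, 5.68 and 1.59%. With 200 bp or more in both lists the values were 45.7%, 2709, 31.3 and 7.25%. An alternative chosen after seeing the data kept the 11266 antibody 2 peaks of 269 bp or more, about as many as antibody 1 has, and gave 21.0%, 2309, 48.6 and 19.95%. Moves of 10 kb and 200 kb gave ratios of 5.91 and 6.70.

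Of shared antibody 1 peaks, 71.5% overlapped RNA polymerase II with input-list intervals, 68.2% with all IgG-called peaks, 77.6% at 200 bp or more and 75.3% with the widest antibody 2 peaks. Of unshared ones, 56.6% did so with 50% coverage, 58.0% with the reciprocal demand, 41.6% with all IgG-called peaks, 74.0% at 200 bp or more and 57.8% with the widest antibody 2 peaks. The median offset was 64 bp in exclusive pairs, 88.5 bp at 200 bp or more and 80.5 bp with input-list intervals. The median gap was 124.9 kb (antibody 1) and 41.1 kb (antibody 2) at 200 bp or more, and 113.5 and 5.15 kb after joining peaks within 1 kb; outside crowded bins that of antibody 2 was 3.89 kb. The cause of the differences not set by construction was not tested. Antibody 1 and antibody 2 shares outside crowded bins, on chromosomes 1 to 22 and X, with control-robust defined by 50% coverage, or with antibody 2 intervals against input stayed within their intervals. A stricter threshold could not be tried without scores, and the reads behind the 123 bp peaks are unknown. No paired analysis was possible because each antibody has 1 library.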
